A study of Mus musculus with 9 samples.

Results

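The 10 genes described here belong to the transcript programme of naive and stem-like memory T cells, and were taken by name as Tcf7, Lef1, Bach2, Satb1, Foxo1, Slamf6, Il7r, Il6ra, Dapl1 and Igfbp4. A row of the array table was assigned to a gene where the platform's annotation named it, and each of 9 genes had 1 probe set that named no other gene. Tcf7, which encodes the transcription factor TCF1, was not named by the probe annotation used here and was not analysed here. The 9 measured genes were set against 31990 probe sets that name at least 1 gene.

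T cells that have not met antigen, and memory cells that keep the capacity to renew, hold a shared set of transcription factors and surface receptors. TCF1 and its relative LEF1 bind the same DNA motif through an HMG box and keep the programme open, FOXO1 switches on homing and survival genes while signalling through AKT is low, BACH2 represses effector genes, and SATB1 organises chromatin. The interleukin-7 receptor gives survival signals, the interleukin-6 receptor alpha chain is high on resting T cells, and SLAMF6 (Ly108) marks stem-like CD8+ cells in chronic infection and tumours. Effector differentiation is known to lower many of these transcripts.

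The cells were pmel1 CD8+ T cells, which carry a transgenic receptor of 1 specificity for a gp100 peptide, and bore the Thy1.1 allele so that they could be told from the cells of the congenic recipients. Mice given these cells and 100 µg of human gp100 peptide formed 3 groups of 3, each with 400 µg of antibody per mouse. Combination mice received 200 µg of the CD27 agonist AT124, 100 µg of the PD-1 antibody RMP1-14 and 100 µg of the PD-L1 antibody 10F.9G2; anti-CD27 mice received 200 µg of AT124 and 200 µg of isotype control; anti-PD-1/L1 mice received 100 µg of each blocking antibody and 200 µg of isotype control. Sorted splenic cells of each mouse were taken on day 4 and put on 1 array, with 50 ng of RNA for each. All comparisons are between treatments, since none of the samples used here had peptide and isotype control alone.

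The promoters of the genes were searched for the motifs of 2 factors of the programme, as a description of the sequence at their starts. Lef1, Foxo1 and Il6ra lie on chromosome 3, Tcf7 and Igfbp4 on 11, Slamf6 on 1, Dapl1 on 2, Bach2 on 4, Il7r on 15 and Satb1 on 17. RefSeq windows on GRCm38.p6, from 250 bases before to 50 bases after a transcript start, were at hand for all 10 genes, 18 windows in all. The TCF and LEF core CTTTGA, read on both strands, was in 2 of the 18 windows, 1 of Bach2 and 1 of Lef1, against 16.0% of 32851 windows of all genes. The forkhead core TGTTTAC was also in 2, 1 of Dapl1 and 1 of Tcf7, against 3.65% of all windows. The windows of Il6ra, Il7r, Foxo1, Slamf6, Satb1 and Igfbp4 held neither set of letters. The stretches shown hold the matches of the 3 measured genes upstream of the start, 5′ to 3′ on the plus strand, with the match in capitals, which is the reverse complement of the core in each (TCAAAG for TCF and LEF, GTAAACA for forkhead factors). The Bach2 stretch is chr4:32417310-32417369, the Dapl1 stretch chr2:59484458-59484517, and the Lef1 stretch chr3:131156094-131156193, before the last of 4 RefSeq starts of Lef1.
Bach2: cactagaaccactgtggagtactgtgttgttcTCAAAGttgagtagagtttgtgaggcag
Dapl1: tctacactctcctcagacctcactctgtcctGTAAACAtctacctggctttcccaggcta
Lef1: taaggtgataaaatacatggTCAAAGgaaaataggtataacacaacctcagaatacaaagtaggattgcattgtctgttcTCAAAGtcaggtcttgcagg
The Lef1 stretch holds 2 matches and the others 1 each. A match describes these letters only.

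The anti-PD-1/L1 arrays stood apart from the other 6, which touches every comparison with that group. Background control probe sets averaged 3.25 on the combination arrays, 3.27 on the anti-CD27 arrays and 4.06 on the anti-PD-1/L1 arrays. Positive control probe sets averaged 6.81 for the combination, 6.70 for anti-CD27 and 5.75 for anti-PD-1/L1. Bacterial and phage control probe sets moved the other way, at 8.60 for the combination, 8.60 for anti-CD27 and 9.75 for anti-PD-1/L1. Negative control probe sets did not set that group apart, at 2.78 for the combination, 2.92 for anti-CD27 and 2.77 for anti-PD-1/L1. All 7 markers of the sorted CD8+ T cells were clearly above background in every group, that is, at least 1 log2 unit above the background controls. Their mean was 9.94 for the combination, 10.04 for anti-CD27 and 9.05 for anti-PD-1/L1. The markers did not move as one: Cd3e, a chain of the T cell receptor complex, averaged 10.95 (combination), 11.06 (anti-CD27) and 8.89 (anti-PD-1/L1), whereas Cd3d, another chain, averaged 9.40 (combination), 9.63 (anti-CD27) and 9.97 (anti-PD-1/L1). Of 8 measured B cell markers, 2 were clearly above background with the combination, 2 with anti-CD27 and 1 with anti-PD-1/L1, and the list's array means spanned 3.38 to 3.41 (combination), 3.39 to 3.43 (anti-CD27) and 3.78 to 3.86 (anti-PD-1/L1). Their part in the results was not tested. The B cell gene Cd79b was clearly above background in each group, and Cd22 with the combination and anti-CD27. Ms4a1, of the same B cell list, was below the background controls in each group. The helper T cell gene Cd4 was also below them in each, although Zbtb7b, of the same helper T cell list, was clearly above them in each. The erythroid list averaged 3.42 (combination), 3.403 (anti-CD27) and 4.09 (anti-PD-1/L1). Of its 5 measured markers, only the haemoglobin gene Hba-a1 was clearly above background, and it was so in each group. Of 7 dendritic cell markers Cst3 was clearly above background in each group, and H2-Ab1 with the combination and anti-CD27. Of 9 myeloid markers, Itgam was clearly above background with the combination, and none was in the other groups. None of 6 NK cell markers was clearly above background in any group. Fewer cells with a transcript and less of it in each cell cannot be told apart in such sorted pools.

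**Figure D1:**
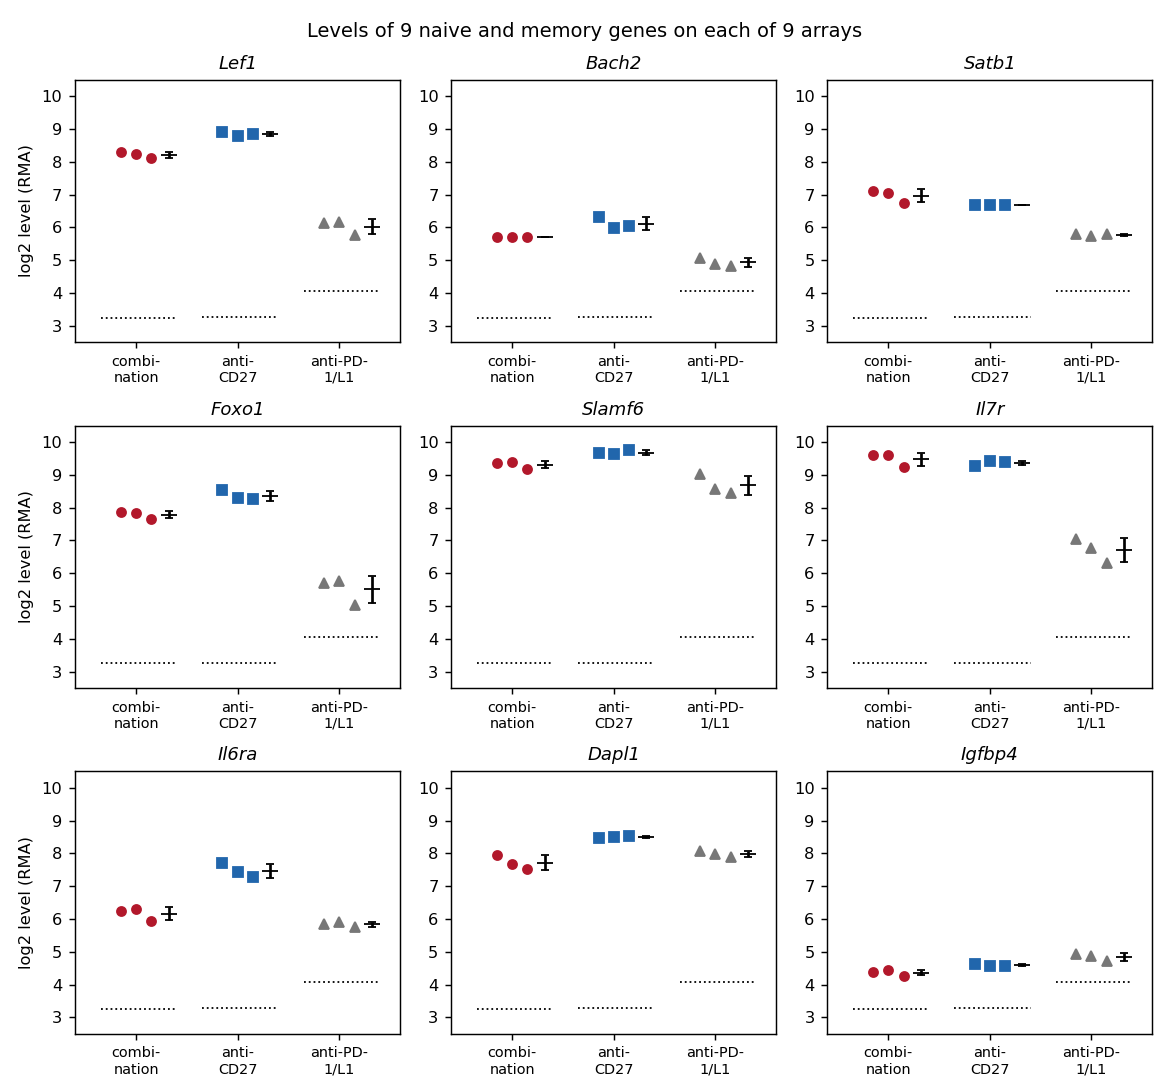
Levels of the 9 measured genes on the 9 arrays, on the log2 scale of the deposited values, with 1 panel per gene. Circles are combination mice, squares anti-CD27 mice and triangles anti-PD-1/L1 mice. Beside them stand the mean and SD of 3 mice, and the dotted lines give the mean of the background control probe sets of each group. Lef1, Foxo1 and Il7r averaged more than 2 log2 units lower on the anti-PD-1/L1 arrays than in either other group. Lef1, Foxo1, Slamf6, Bach2, Il6ra and Dapl1 had their highest means in anti-CD27.

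The first question was how the naive programme changed when the blocking antibodies were given on top of the CD27 agonist, that is, in the combination against anti-CD27. Between these groups the background controls differed by -0.02 (exact permutation p = 0.8, two-sided), the positive controls by 0.11, the negative controls by -0.14 and the CD8+ T cell markers by -0.10. For the last 3 the exact test gave 0.1, which 3 arrays against 3 cannot go below, and their part in the results was not tested. Of the 9 genes, Il6ra, Dapl1 and Lef1 fell in the combination, none rose, and 6 did not pass at an adjusted p under 0.05 by limma's moderated test. Among all 31990 probe sets, 0.513% fell and 1.23% rose, or 1.74% in either direction. The median difference of the 9 genes was -0.41 on the log2 scale, against -0.0031 for all probe sets. The 3 arrays of one group lay wholly below or above those of the other for 8 of the 9 genes, 7 of them lower and 1 higher in the combination. Of all probe sets, 8.53% were lower and 12% were higher without overlap.

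Il6ra, which encodes the ligand-binding chain of the interleukin-6 receptor, had the largest difference of the 9. Its levels were 6.23, 6.32 and 5.94 in combination mice, against 7.71, 7.43 and 7.27 in anti-CD27 mice. Every combination array was thus about 1 log2 unit or more below every anti-CD27 array. Il6ra fell by 1.31 ± 0.13 (log2 difference ± SE), or 2.47-fold (adjusted p = 0.00269). The call held when any 1 of the 9 arrays was left out (adjusted p up to 0.0205), and the size of its difference ranked 39th among all 31990 probe sets.

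Dapl1, a small gene that is high in naive CD8+ T cells and related to a death-associated protein, was at 7.96, 7.69 and 7.51 in combination mice, against 8.47, 8.50 and 8.54 in anti-CD27 mice. The combination arrays differed more among themselves (SD 0.22) than the anti-CD27 arrays did (SD 0.033), and all lay lower. Dapl1 fell by 0.78 ± 0.11 (adjusted p = 0.00965). This call was lost without replicate 1 of anti-CD27 (adjusted p = 0.0519), without its replicate 2 (0.0536) or without replicate 2 of the combination (0.0555). Its promoter stretch with the forkhead core is the one printed above.

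Lef1, the HMG-box factor that shares its motif and much of its role with TCF1, was at 8.29, 8.23 and 8.11 in combination mice, against 8.91, 8.79 and 8.83 in anti-CD27 mice. The groups did not overlap, and each spanned less than 0.2 log2 units. Lef1 fell by 0.63 ± 0.11, or 1.55-fold (adjusted p = 0.0291). The call was lost when any 1 of the 6 arrays compared was left out (adjusted p from 0.0819 to 0.148), although the difference then stayed between -0.67 and -0.58. It was also lost when each array was set relative to its CD8+ T cell markers (-0.53, adjusted p = 0.0789) and over all transcript probe sets (adjusted p = 0.0524).

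The other 3 transcription factors did not pass. Foxo1, the forkhead factor that activates Il7r and homing receptors, was at 7.86, 7.84 and 7.66 in combination mice, against 8.52, 8.28 and 8.26 in anti-CD27 mice. It differed by -0.57 ± 0.18 (adjusted p = 0.251), without overlap of the groups. Foxo1 was the gene of the 9 with the widest spread on the anti-PD-1/L1 arrays (SD 0.40), which share in the estimate of its error, and the same difference passed with the 6 compared arrays alone (adjusted p = 0.0346) and also when replicate 3 of the anti-PD-1/L1 mice was left out (0.0243). Bach2, a repressor that competes with AP-1 factors and holds back effector genes, was at 5.71, 5.71 and 5.70 in combination mice, against 6.33, 5.99 and 6.04 in anti-CD27 mice. It differed by -0.41 ± 0.10 (adjusted p = 0.0924). Satb1, a genome organiser of T cell development, went the other way, at 7.09, 7.06 and 6.75 in combination mice, against 6.70 on each anti-CD27 array. It differed by 0.27 ± 0.09 (adjusted p = 0.239) and passed without replicate 3 of the combination (0.38, adjusted p = 0.024). The 3 anti-CD27 values of Satb1 were identical to all the digits deposited, as were those of 2815 of the 31990 probe sets in that group.

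Among the receptors other than Il6ra, Slamf6, a homotypic receptor of the SLAM family, was at 9.36, 9.38 and 9.19 in combination mice, against 9.67, 9.62 and 9.75 in anti-CD27 mice. It differed by -0.37 ± 0.13 (adjusted p = 0.346), and the same value passed with the 6 compared arrays alone (adjusted p = 0.0405) or when replicate 1 of the anti-PD-1/L1 mice was left out (0.0343). Il7r, the interleukin-7 receptor alpha chain, was the 1 gene whose arrays overlapped. Its levels were 9.59, 9.59 and 9.24 in combination mice, against 9.28, 9.41 and 9.40 in anti-CD27 mice, a difference of 0.11 ± 0.17 (adjusted p = 1). The covariate of positive controls turned it to -0.090. Il6ra and Il7r, both cytokine receptor chains of resting cells, therefore had differences of -1.31 (Il6ra) and 0.11 (Il7r) between the same 6 mice. Igfbp4, which encodes a secreted binding protein of insulin-like growth factors, was the dimmest of the 9 probe sets, at 4.39, 4.44 and 4.27 in combination mice, against 4.62, 4.57 and 4.57 in anti-CD27 mice. Its difference was -0.22 ± 0.07 (adjusted p = 0.263), with a combination mean 1.12 and an anti-CD27 mean 1.32 above the background controls.

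Bach2, Satb1, Foxo1, Slamf6 and Igfbp4 each passed when arrays were weighted by their quality, with adjusted p-values from 0.0127 to 0.0289, and then 8 of the 9 genes passed, among 2637 calls over the 31990 probe sets. With the mean of the positive controls as a covariate, 6 passed, among 704 calls. Of the 3 called genes, Il6ra alone kept its call under all 21 alternatives.

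**Figure D2:**
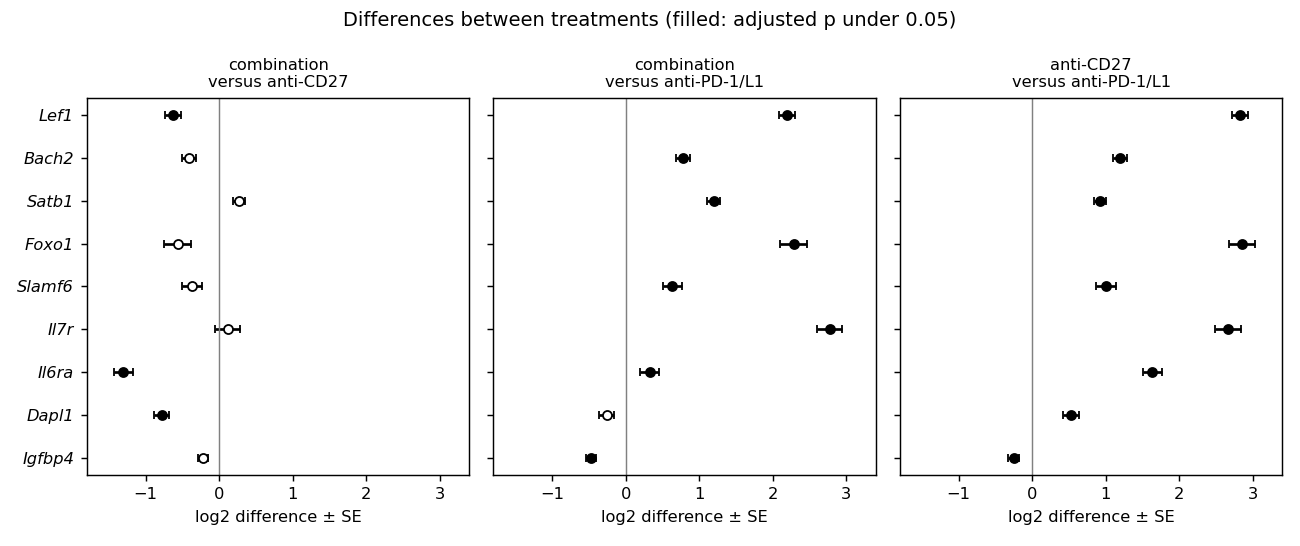
Log2 differences of the 9 genes with limma's SE in the 3 comparisons, with the first-named treatment minus the second on the x axis. Filled points had an adjusted p under 0.05 over 31990 probe sets. The combination was lower than anti-CD27 in 7 of 9 genes, of which 3 are filled, whereas most genes lay far to the right of 0 against anti-PD-1/L1.

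In the comparison of anti-CD27 with anti-PD-1/L1, 8 of the 9 genes were higher in anti-CD27 and 1, Igfbp4, was lower, in each case without overlap of the arrays. Among all probe sets 70.5% were called, 17.3% higher and 53.2% lower, and 17.6% were higher and 54.8% lower without overlap, so a call in itself says little here. The median difference of the 9 genes was 1.19, against -0.26 for all probe sets, and higher calls were 24.5% of all calls. That split depended on the scaling, with 41.4% of calls higher after quantile normalization, 63.6% after each array was centred on its median and 4.35% relative to the CD8+ T cell markers. Centring moved the median of all probe sets to 0.064, and the marker scaling moved it to -1.25. Without the 50% of probe sets with the lowest means, the median of the rest was -0.055, and 44.9% of their calls were higher. The levels of background, positive and bacterial control probe sets and of CD8+ T cell markers given above moved with this comparison. Negative controls differed by 0.15 in it (exact permutation p = 0.1), and by 0.0082 between the combination and anti-PD-1/L1 (exact permutation p = 0.9). Array and treatment cannot be told apart.

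Foxo1, Lef1 and Il7r had the largest differences. Foxo1 was at 8.52, 8.28 and 8.26 in anti-CD27 mice, against 5.70, 5.77 and 5.04 in anti-PD-1/L1 mice, a difference of 2.85 ± 0.18, or 7.20-fold (adjusted p = 4.1e-06). Lef1 was at 8.91, 8.79 and 8.83 in anti-CD27 mice, against 6.14, 6.17 and 5.75 in anti-PD-1/L1 mice (2.82 ± 0.11, 7.06-fold, adjusted p = 2.28e-07). Il7r was at 9.28, 9.41 and 9.40 in anti-CD27 mice, against 7.04, 6.76 and 6.31 in anti-PD-1/L1 mice (2.66 ± 0.17, 6.31-fold, adjusted p = 4.93e-06). For each gene of this trio the gap between the groups was several times the spread within them. Measured relative to the 7 CD8+ T cell markers of the same array, the differences were 1.86 for Foxo1, 1.83 for Lef1 and 1.67 for Il7r (highest adjusted p = 1.66e-07). With the positive control covariate Lef1 differed by 1.93 (adjusted p = 0.0312), while Foxo1 (1.39, adjusted p = 0.216), Il7r (0.83, adjusted p = 0.266) and the other 6 genes did not pass. The positive controls ran from 5.59 to 5.96 on the anti-PD-1/L1 arrays and from 6.68 to 6.83 on the other arrays. The covariate thus nearly followed the group, and the model separates covariate and group poorly.

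The remaining genes had smaller differences. Il6ra averaged 7.47 in anti-CD27 mice, against 5.86, 5.89 and 5.75 in anti-PD-1/L1 mice, and was higher by 1.63 ± 0.13 (adjusted p = 1.37e-05), or by 0.64 relative to the CD8+ T cell markers (adjusted p = 0.0013). Bach2 averaged 6.12 in anti-CD27 mice, against 5.07, 4.89 and 4.83 in anti-PD-1/L1 mice, where it was not clearly above background. Its difference was 1.19 ± 0.10 on the deposited scale (adjusted p = 1.72e-05). Slamf6 averaged 9.68 in anti-CD27 mice, against 9.01, 8.57 and 8.44 in anti-PD-1/L1 mice (1.00 ± 0.13, adjusted p = 0.000216). The groups did not overlap for any of them. Satb1 was at 6.70 on all 3 anti-CD27 arrays, against 5.79, 5.75 and 5.79 in anti-PD-1/L1 mice (0.92 ± 0.09, adjusted p = 3.28e-05). Relative to the CD8+ T cell markers the differences were 0.20 for Bach2, 0.015 for Slamf6 and -0.067 for Satb1, and none of these 3 passed (adjusted p from 0.196 to 0.91). Slamf6 differed by -0.56 with the positive control covariate (adjusted p = 0.136).

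Dapl1 and Igfbp4 also changed direction with the scaling. Dapl1 averaged 8.50 in anti-CD27 mice, against 8.06, 7.99 and 7.88 in anti-PD-1/L1 mice, a difference of 0.52 ± 0.11 (adjusted p = 0.00209). The difference was 0.21 after quantile normalization (adjusted p = 0.0838), -0.076 with the positive control covariate and -0.47 relative to the CD8+ T cell markers (adjusted p = 0.0059). Igfbp4 averaged 4.59 in anti-CD27 mice, against 4.94, 4.87 and 4.71 in anti-PD-1/L1 mice, and differed by -0.25 ± 0.07 (adjusted p = 0.0118), by 0.066 after centring each array on its median (adjusted p = 0.544), by -0.86 with the positive control covariate (0.0562) and by -1.24 relative to the CD8+ T cell markers (5.93e-07). Its anti-CD27 mean stood 1.32 above the background controls, and its anti-PD-1/L1 mean 0.78, not clearly above them.

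The last comparison, of the combination against anti-PD-1/L1, asks what the CD27 agonist changed on top of the blocking antibodies. Of the 9 genes, 7 were higher in the combination and 1 was lower, all without overlap of the arrays, and 1 did not pass. Of all probe sets 72.1% were called, 19.1% higher and 53% lower, and 19% were higher and 54.3% lower without overlap. Higher calls were 26.5% of all calls, 44.3% after quantile normalization, 66.3% after centring on the median and 6.2% relative to the CD8+ T cell markers. This comparison shares its anti-PD-1/L1 arrays with the one before. The median difference of the 9 genes was 0.78, against -0.26 for all probe sets, which became 0.091 after centring and -1.14 with the marker scaling. Without the 50% of probe sets with the lowest means, the median of the rest was -0.027, and 47.8% of their calls were higher.

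Il7r, Foxo1 and Lef1 again had the largest differences. Il7r differed by 2.77 ± 0.17 (6.83-fold, adjusted p = 3.55e-06), Foxo1 by 2.28 ± 0.18 (4.87-fold, adjusted p = 1.27e-05) and Lef1 by 2.19 ± 0.11 (4.56-fold, adjusted p = 9.67e-07). For each of the 3 the lowest combination array was above the highest anti-PD-1/L1 array by more than 1.5 log2 units. Relative to the CD8+ T cell markers Il7r differed by 1.88, Foxo1 by 1.40 and Lef1 by 1.30 (highest adjusted p = 9.86e-07). None of the 3 passed with the positive control covariate, where Lef1 differed by 1.20 (adjusted p = 0.133), Il7r by 0.74 (0.377) and Foxo1 by 0.66 (0.606), and the 2 genes that did pass there were Slamf6 and Igfbp4. With this covariate, which nearly followed the group, the SE of Lef1 was 0.42, against 0.11 without it.

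Satb1 was higher in the combination by 1.19 ± 0.09 (adjusted p = 7.62e-06), Bach2 by 0.78 ± 0.10 (adjusted p = 0.00013) and Slamf6 by 0.64 ± 0.13 (adjusted p = 0.00266). Bach2 was not clearly above background on the anti-PD-1/L1 arrays. Relative to the CD8+ T cell markers the differences were 0.31 for Satb1, -0.11 for Bach2 and -0.25 for Slamf6, and none passed (adjusted p from 0.0646 to 0.479). Slamf6 differed by -1.10 with the positive control covariate (adjusted p = 0.0377), the reverse of its direction on the deposited scale.

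Il6ra and Dapl1, the genes that fell furthest in the combination against anti-CD27, were close to their anti-PD-1/L1 levels. Il6ra averaged 6.16 ± 0.20 in the combination and 5.83 ± 0.08 in anti-PD-1/L1 (SD, n = 3 each), a difference of 0.33 ± 0.13 at the edge of the threshold (adjusted p = 0.0442). That call was lost without any 1 of the anti-PD-1/L1 arrays, without replicate 1 or 2 of the combination or without replicate 2 of anti-CD27 (adjusted p from 0.0621 to 0.145). The difference was -0.0023 after quantile normalization and -0.56 relative to the CD8+ T cell markers (adjusted p = 0.00386). Dapl1 averaged 7.72 ± 0.22 in the combination and 7.98 ± 0.09 in anti-PD-1/L1, and the arrays overlapped. Its difference of -0.26 ± 0.11 missed the threshold (adjusted p = 0.0515) and passed at -0.64 after quantile normalization (adjusted p = 0.000329), at -1.15 relative to the CD8+ T cell markers (adjusted p = 2.73e-06), and without replicate 1 of the combination (-0.38, adjusted p = 0.0044) or with anti-PD-1/L1 replicate 3 left out (-0.31, adjusted p = 0.049). After centring the Dapl1 difference was 0.087 (adjusted p = 0.538). Igfbp4 was lower in the combination, with a difference of -0.47 ± 0.07 (adjusted p = 0.000389) that was -0.13 after centring (adjusted p = 0.232), -1.15 with the positive control covariate (0.0399) and -1.36 relative to the CD8+ T cell markers (4.86e-07). It had a combination mean of 1.12 and an anti-PD-1/L1 mean of 0.78 above the background controls of each group.

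**Figure D3:**
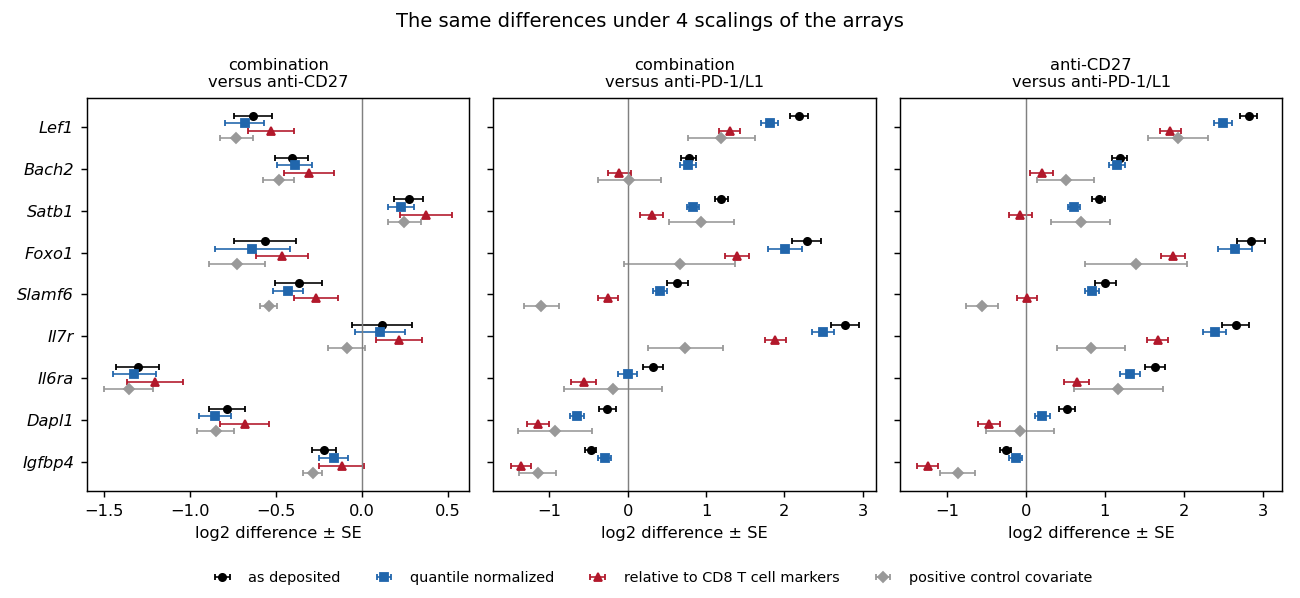
The log2 differences of the 9 genes with their SE under 4 scalings, in the 3 comparisons. Circles are the values as deposited, squares those after quantile normalization of the transcript probe sets, triangles those relative to the CD8+ T cell markers of each array and diamonds those with the positive control mean as a covariate. Against anti-PD-1/L1 that covariate nearly followed the group. The 4 values of a gene lie close together between the combination and anti-CD27, and spread by more than 1 log2 unit for Slamf6, Il7r, Foxo1 and Igfbp4 against anti-PD-1/L1.

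On the deposited scale the levels fell into several orders. Lef1, Foxo1, Slamf6, Bach2 and Il6ra were highest in anti-CD27, lower in the combination and lowest in anti-PD-1/L1, without overlap between any of the groups, although Il6ra, Slamf6 and Bach2 changed places between the combination and anti-PD-1/L1 under the scalings named above. Between the combination and anti-CD27, Foxo1, Slamf6 and Bach2 did not pass the test. Satb1 was highest in the combination, where its difference from anti-CD27 did not pass either, and Il7r did not differ between the combination and anti-CD27 beyond the spread of the arrays. Dapl1 was highest in anti-CD27, with overlapping combination and anti-PD-1/L1 arrays. Igfbp4 was highest in anti-PD-1/L1 (4.84), lower in anti-CD27 (4.59) and lowest in the combination (4.37), without overlap between any of the groups. It was not clearly above background in anti-PD-1/L1, and its difference between the combination and anti-CD27 did not pass.

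Across all 9 arrays, 10 of the 36 pairs of genes had a Pearson r above 0.9 and 7 had an r below 0. The values of all genes on the 9 arrays hold the differences between treatments. Lef1 and Foxo1 had the highest (r = 0.997), and Igfbp4 had a negative r with every gene except Dapl1. Igfbp4 was near the background controls, which were themselves higher on the anti-PD-1/L1 arrays. Its means above them were 1.12 (combination), 1.32 (anti-CD27) and 0.78 (anti-PD-1/L1), lowest in anti-PD-1/L1. When each value was taken as the deviation from its treatment's mean, none of the 36 pairs was negative, the median was 0.58, and Lef1 and Foxo1 were again the closest pair (r = 0.976), followed by Il7r and Igfbp4 (r = 0.913). The deviations leave 6 degrees of freedom and share the level of each array, and the correlations are descriptions without a test.

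**Figure D4:**
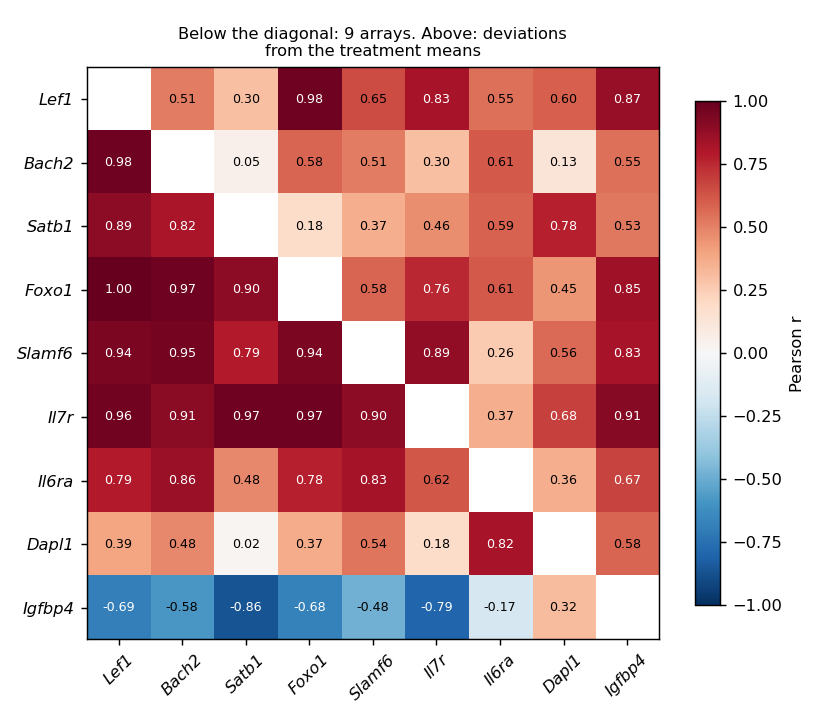
Pearson r between each pair of the 9 genes, below the diagonal over the 9 arrays and above it over deviations from the treatment means. The row of Igfbp4 is negative below the diagonal except with Dapl1, and all values above the diagonal are positive. Igfbp4 was not clearly above background on the anti-PD-1/L1 arrays.

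Among 8752 genes whose mean over the 9 arrays was at least 1 log2 unit above the background controls, the nearest to each gene was taken by Pearson r over the 9 arrays, which again holds the differences between treatments. Slfn5, a member of the interferon-inducible Schlafen family, was closest to Il6ra (r = 0.993), with means of 4.91 (combination), 6.15 (anti-CD27) and 4.39 (anti-PD-1/L1). On the anti-PD-1/L1 arrays neither Slfn5 nor Trim30c was clearly above background. Trim30c was closest to Lef1 (r = 0.998), and Fam102a was closest to Foxo1 (r = 0.998). Irf9, the DNA-binding part of the complex that transmits type I interferon signals, was closest to Slamf6 (r = 0.997). St6gal1, a sialyltransferase, was closest to Dapl1 (r = 0.955), Akap8l to Bach2 (r = 0.996), Nr3c1, the glucocorticoid receptor, to Satb1 (r = 0.997), Ccnt1 to Il7r (r = 0.9995) and P2rx4 to Igfbp4 (r = 0.984).

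The partners of these genes were described by lists, and some genes stood in more than 1 list. Between the combination and anti-CD27, 1 of 21 other naive and memory genes fell and none rose (median -0.17): Foxp1, a forkhead factor of quiescent T cells, by 0.52 ± 0.08 (adjusted p = 0.0215). Of 15 genes of the FOXO family, its regulators and targets, 1 fell (median -0.14): Pik3ip1, an inhibitor of PI3 kinase, by 0.35 ± 0.06 (adjusted p = 0.0206). None of 10 partners of the interleukin-6 receptor passed. Il6st, the signalling chain gp130 that pairs with the product of Il6ra, had the largest difference among them, at -0.64 ± 0.13 with means of 7.55 in the combination and 8.19 in anti-CD27 (adjusted p = 0.0527). Of 12 partners of the interleukin-7 receptor none passed, and Pim1, a kinase induced by STAT5, was furthest from 0 at -0.41 ± 0.15 (adjusted p = 0.377). None of 19 partners and cofactors of TCF and LEF passed either, the furthest being the deacetylase Hdac1 at 0.33 ± 0.13 (adjusted p = 0.456). The median differences were -0.068 for the interleukin-6 receptor list, -0.042 for the interleukin-7 receptor list and -0.043 for the TCF and LEF list.

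The receptors of insulin-like growth factors, whose ligands IGFBP4 binds, differed in opposite directions. Igf2r, which carries IGF2 to lysosomes, rose by 0.64 ± 0.05 (adjusted p = 0.00107), with means of 6.62 in the combination and 5.97 in anti-CD27. Igf1r, the signalling receptor, fell by at least 0.83 ± 0.09 (adjusted p = 0.0052), with a combination mean of 4.19 that was not clearly above background and an anti-CD27 mean of 5.02. The other 9 of 11 measured genes of that list did not pass (median -0.0025). In the list around BACH2 (median 0.024), 1 of 12 passed, Prdm1, which encodes the effector repressor Blimp-1, at a difference of 0.44 ± 0.08 (adjusted p = 0.0338) between means of 3.31 in the combination and 2.87 in anti-CD27, neither clearly above background. Slamf7, a further SLAM receptor, had a difference of 0.75 ± 0.17 (adjusted p = 0.0836), opposite in sign to Slamf6, and none of 11 genes of that list passed (median 0.043). Neither of 2 SATB relatives passed (median -0.06; Cux1, -0.10 ± 0.05, adjusted p = 0.694), nor did Dap, the relative of Dapl1 (0.32 ± 0.22, adjusted p = 0.885). Of 14 effector genes, 8 rose and none fell (median 0.48), among them Gzmb, which encodes granzyme B, by at least 4.75 ± 0.40, Gzma, another granzyme, by 2.78 ± 0.24, the receptor gene Klrg1 by at least 1.35 ± 0.15 and Id2, an effector factor, by 1.29 ± 0.10 (highest adjusted p = 0.0052).

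Against anti-PD-1/L1, most probe sets were called, and most lists held genes called in both directions. Of all probe sets, 17.3% were called higher and 53.2% lower in anti-CD27, and 19.1% higher and 53% lower in the combination. Of the 10 interleukin-6 receptor partners, 9 were higher and 1 lower, both in anti-CD27 (median 1.33) and in the combination (median 1.36). Jak1, a kinase used by both cytokine receptors, was 2.97 ± 0.08 higher in anti-CD27 and 3.01 ± 0.08 higher in the combination (highest adjusted p = 5.52e-08). Of 12 interleukin-7 receptor partners, 8 were higher and 3 lower in each comparison (medians 0.82 in anti-CD27 and 0.78 in the combination). Of 21 other naive and memory genes, 14 were higher and 2 lower in each (medians 0.64 in anti-CD27 and 0.61 in the combination), led by Actn1, which encodes an actin crosslinker, at 3.97 ± 0.08 in anti-CD27 and 3.84 ± 0.08 in the combination. Of 19 TCF and LEF partners, 12 were higher in anti-CD27 and 10 in the combination, with 6 lower in each (medians 0.36 in anti-CD27 and 0.42 in the combination). The E protein gene Tcf12 led them, 1.76 ± 0.06 higher in anti-CD27 and 1.71 ± 0.06 higher in the combination. Tcf12 was not clearly above background in anti-PD-1/L1.

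Sesn3, a stress-induced FOXO target, was 1.44 ± 0.13 higher in anti-CD27 and 1.30 ± 0.13 higher in the combination. Klf2, a FOXO1 target that controls exit from lymphoid tissue, was 1.35 ± 0.10 higher in anti-CD27 and 1.26 ± 0.10 higher in the combination (highest adjusted p = 1.45e-05). Of the 15 genes of its list, 8 were higher and 2 lower in anti-CD27, and 5 were higher and 3 lower in the combination (medians 0.30 in anti-CD27 and 0.042 in the combination). Of 11 SLAM genes, 4 were higher and 4 lower in each comparison (medians -0.076 in anti-CD27 and 0.12 in the combination), and Slamf7 was 1.42 ± 0.17 higher in anti-CD27 and 2.17 ± 0.17 higher in the combination. In the list around BACH2, 4 of 12 were higher and 4 lower in anti-CD27, and 5 higher and 4 lower in the combination (medians -0.047 in anti-CD27 and 0.11 in the combination), and Jun, an AP-1 factor, was 1.20 ± 0.13 higher in anti-CD27 and 1.22 ± 0.13 higher in the combination. Of 11 genes of IGF binding and reception, 9 were lower in each (medians -0.51 in anti-CD27 and -0.49 in the combination). Most calls over all probe sets were lower too, at 53.2% of probe sets in anti-CD27 and 53% in the combination. Igf2r was 1.52 ± 0.05 higher in anti-CD27 and 2.16 ± 0.05 higher in the combination, and was not clearly above background in anti-PD-1/L1. Of 2 SATB relatives, 1 was higher and 1 lower in each (medians 0.15 in anti-CD27 and 0.091 in the combination). Cux1 was 0.80 ± 0.05 higher in anti-CD27 and 0.70 ± 0.05 higher in the combination, and was not clearly above background in anti-PD-1/L1. Dap was higher by 1.80 ± 0.22 in anti-CD27 and 2.11 ± 0.22 in the combination. Of the effector genes, 5 of 14 were higher and 7 lower in anti-CD27 (median -0.19), while 11 were higher and 2 lower in the combination (median 0.72). Gzmb differed by 2.36 ± 0.40 in the combination, and was lower by 2.38 ± 0.40 in anti-CD27, where it was not clearly above background.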

How the data were processed

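Each array had a deposited log2 value for every probe set, and the submitters' processing notes name RMA and oligo 1.38.0. RMA subtracts background, quantile-normalizes and merges probes. No genome build for the array design is given in the sources used here. Of 65956 transcript probe sets, 31258 named 1 gene, 1492 several and 33206 none. Of those naming the same gene or genes, the one with the highest mean was kept, and 31990 were tested without a filter on low values.

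A linear model with 1 mean per treatment was fitted to all 9 arrays with limma 3.58.1 in R 4.3.3 (6 residual degrees of freedom). Benjamini-Hochberg adjustment ran over all 31990 probe sets, and a two-sided adjusted p under 0.05 was a call. The test was checked on simulated data. Controls and markers were compared by exact permutation tests, which cannot go below 0.1 with 3 arrays against 3. For arrays, their number limits the precision.

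The members, gene lists and rules were chosen with earlier results of these data known. Named were all members, up to 4 called genes of a list by size of difference (or the largest where none was called), and the nearest genes by Pearson r. Against anti-PD-1/L1 the 1 or 2 with the largest difference in either comparison are named. Each result was recomputed under 21 alternatives, of which the scaling to CD8+ T cell markers was chosen after seeing the data.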

Additional observations from a re-analysis of the deposited data

How the results depend on the processing

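With 21 alternatives, the 27 differences of the 9 genes gave 567 recomputed values, of which 500 kept their direction and side of the threshold, 35 lost a call, 19 gained one and 13 changed sign. In the combination against anti-CD27, the 3 calls among the 9 genes became 5 with the 6 compared arrays alone, 6 with the positive control covariate, 8 with array weights, and 1 to 4 when 1 array was left out. The 556 calls over all probe sets became 1720 with the 6 arrays alone, 2637 with array weights and 164 to 1255 when 1 array was left out (1255 without replicate 1 of anti-PD-1/L1, and 164 to 301 without any 1 of the 6 compared arrays). Relative to the CD8+ T cell markers, 90.4% of these calls were higher, against 70.5% as deposited. Against anti-PD-1/L1, the 8 calls of the combination became 2 with the positive control covariate, and the 9 calls of anti-CD27 became 1. Over all probe sets the covariate left 2010 calls for the combination and 2559 for anti-CD27. In these comparisons the covariate nearly followed the group. There were 12365 and 11896 calls without the 50% of probe sets of lowest mean, of fewer probe sets tested, and 42358 and 42213 among all transcript probe sets, of more tested. Against anti-CD27, Il7r changed sign with the covariate (-0.090). Against anti-PD-1/L1, the combination's changes of sign were those of Il6ra after quantile normalization (-0.0023), of Dapl1 after centring (0.087), of Slamf6 (-1.10) and Il6ra (-0.19) with the covariate, and of Bach2 (-0.11), Slamf6 (-0.25) and Il6ra (-0.56) relative to the CD8+ T cell markers. For anti-CD27 they were Igfbp4 after centring (0.066), Slamf6 (-0.56) and Dapl1 (-0.076) with the covariate, and Satb1 (-0.067) and Dapl1 (-0.47) relative to the markers. The cause of these changes was not tested. Same-numbered samples did not deviate together (r from -0.194 to 0.161), and with the replicate number as a replicate block there were 379 calls for the combination against anti-CD27, 3 of them among the 9 genes. The block moved no other call among the 9 genes except that of Dapl1 between the combination and anti-PD-1/L1, which passed (adjusted p = 0.0451). The number of arrays, 3 a group, limits the precision, and the signal of Bach2 and Igfbp4 was not clearly above background in anti-PD-1/L1.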
